A study of Homo sapiens and Canis lupus familiaris with 27 samples.

Results

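The mitotic kinesin motors examined here were 10 genes, KIF11, KIF15, KIFC1, KIF4A, KIF22, KIF18A, KIF2C, KIF20A, KIF23 and KIF14, found by symbol in the count tables of PC-3, LNCaP and CT1258 prostate carcinoma cells. The tables of the human cell lines list 23708 genes and hold all 10. The CT1258 table lists 16028 genes and holds 8 of the 10, without KIF4A and KIF2C. Kinesins are motor proteins that use ATP to move along microtubules or to take microtubules apart. In dividing cells they build the 2-poled spindle, move chromosomes to the plate and pull them apart, and prepare the cell for the final cut between the daughters. Most of these genes are transcribed mainly in the G2 and M phases, and several of the proteins, KIF11 first among them, have been pursued as targets of antimitotic drugs.

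The study exposed PC-3, LNCaP and CT1258 cells to PDA-66, an indolylmaleimide described as depolymerizing microtubules, in order to compare the response of prostate carcinoma cells of men and dogs. PC-3 was derived from a bone marrow metastasis and LNCaP from a lymph node metastasis of prostate adenocarcinoma, and CT1258 is a canine prostate adenocarcinoma line. PDA-66 was given at 15 µM, and RNA was taken 12 h or 24 h later. Controls had the solvent alone, 0.15% DMSO, over 24 h. No 12 h control was analysed here, so that the 12 h and the 24 h exposure of each line share their 24 h DMSO samples as the reference. Each group had 3 samples, except that 2 PC-3 DMSO samples had counts to analyse, which gives 26 of 27 samples. The study had left out 1 PC-3 DMSO sample as an outlier after multidimensional scaling. The spread of the PC-3 controls thus rests on the 2 samples that were kept. Each species or disease stage is represented by 1 or 2 lines, so that the spread between samples is not that between patients or dogs.

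Every member had at least 64 counts in every sample. Sample totals ran from 14650839 to 18091755 counts for PC-3, from 11923105 to 14741883 for LNCaP and from 7203534 to 20976950 for CT1258. In CT1258 the DMSO samples held 2.64 times the counts of the PDA-66 samples, and every DMSO sample was above every PDA-66 sample. Any difference in library preparation or sequencing behind this cannot be told apart from exposure in CT1258. Levels are given below as CPM, the counts of a gene scaled to 1000000 counts per sample after edgeR's TMM normalization. All members listed passed the filter on low counts, that is 10 for PC-3, 10 for LNCaP and 8 for CT1258. The LNCaP samples were the most scattered, with a common biological coefficient of variation of 0.240, against 0.0971 for PC-3 and 0.10 for CT1258. The sample LNCaP PDA-66 12 h replicate 2 stood apart from its group (mean log2 distance 2.19 against 1.58 and 1.53), and values of named members without it are given below where they moved most. Of the epithelial markers EPCAM, CDH1, KRT8, KRT18 and KRT19, all 5 were above 1 CPM in PC-3 and in LNCaP. In CT1258, EPCAM was the only epithelial marker listed and stood at 0 in every DMSO sample. The markers used here thus did not show the epithelial origin of CT1258. Summed PECAM1 and CDH5, markers of endothelium, were at 12.8 to 18.5 CPM in PC-3 DMSO and at 4.26 to 10.0 CPM with PDA-66. CDH5 was at 0 in every PC-3 DMSO sample, so that the sum there was PECAM1 alone. Summed leukocyte and fibroblast markers reached at most 1.24 and 1.71 CPM in PC-3. The summed epithelial markers of PC-3 were at 987 to 1088 CPM in DMSO and 658 to 908 CPM with PDA-66. The part of these markers in the results was not tested.

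On GRCh37, the build of the human counts, the positions of the members are given with the number of exons of the canonical GENCODE transcript. Those that keep the spindle 2-poled are KIF11 at chr10:94333862-94415152 (plus strand, 22 exons), KIF15 at chr3:44803213-44914868 (plus strand, 35 exons) and KIFC1 at chr6:33359600-33377673 (plus strand, 11 exons). Those of chromosome arms and microtubule ends are KIF4A at chrX:69509954-69640736 (plus strand, 31 exons), KIF22 at chr16:29802048-29816706 (plus strand, 14 exons), KIF18A at chr11:28042166-28129703 (minus strand, 17 exons) and KIF2C at chr1:45205490-45233439 (plus strand, 21 exons). Those of cytokinesis are KIF20A at chr5:137514408-137523412 (plus strand, 19 exons), KIF23 at chr15:69706585-69740766 (plus strand, 24 exons) and KIF14 at chr1:200520625-200589879 (minus strand, 30 exons). Counts were made over whole genes, so that exons and UTRs are not resolved.

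Sequences around the transcription start of the human members are shown because 2 short elements are known from promoters of G2/M genes. The CHR element (TTTGAA) is bound by the MuvB complexes that repress or activate such genes during the cell cycle, and the NF-Y box (CCAAT) by the factor NF-Y. RefSeq promoter windows on GRCh38.p14, from 250 bases before to 50 bases after the start, were found for all 10 members and searched on both strands. A CHR element was present in 7 of the 10 members, KIF11, KIF14, KIF15, KIF18A, KIF23, KIF4A and KIFC1, against 15.2% of 35116 promoters. An NF-Y box was present in 8 of the 10, and both elements in 6 of the 10, against 34.6% and 5.9% of all promoters. The GC-rich motif GGCGG was found in all 10 and in 59% of all promoters. The stretch around the closest pair of both elements reads as follows on the strand of the gene, with the 2 elements in capitals, where ATTGG and TTCAAA are the reverse complements.
KIF11: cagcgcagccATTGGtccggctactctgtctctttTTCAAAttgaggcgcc
KIFC1: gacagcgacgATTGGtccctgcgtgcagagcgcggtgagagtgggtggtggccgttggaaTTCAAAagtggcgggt
KIF4A: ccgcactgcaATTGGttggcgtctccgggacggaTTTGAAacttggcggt
KIF18A: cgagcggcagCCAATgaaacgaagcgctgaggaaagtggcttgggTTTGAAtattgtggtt
KIF23: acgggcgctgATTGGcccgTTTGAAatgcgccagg
KIF14: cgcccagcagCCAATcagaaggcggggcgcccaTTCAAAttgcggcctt
These stretches lie at chr10:92593067-92593117 on the plus strand for KIF11, chr6:33391767-33391842 on the plus strand for KIFC1 and chrX:70290036-70290085 on the plus strand for KIF4A. They lie at chr11:28108151-28108211 on the minus strand for KIF18A, chr15:69414275-69414309 on the plus strand for KIF23 and chr1:200620735-200620783 on the minus strand for KIF14. In KIF11, KIF4A and KIF14 the elements were separated by 20, 19 and 18 bases. The distance was 30 bases in KIF18A, 45 in KIFC1 and 4 in KIF23. The CHR elements of KIF14 and KIFC1 begin after the start, at bases 2 and 5. A match is a description of letters and no measured binding site. KIF15 held a CHR element and no NF-Y box, KIF20A and KIF22 an NF-Y box and no CHR element, and KIF2C neither in this window.

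The order of the members in unexposed human cells depended on whether the length of the transcript was taken into account. KIF22 has 2081 bases in its canonical transcript and 7169 bases over all its annotated exons, and no order by the latter was made. In mean CPM, without a length, KIF11, KIF4A and KIF20A (99.6, 86.4 and 77.1) were above KIF22 (73.0) in PC-3 DMSO. In LNCaP DMSO, KIF22 was highest in mean CPM as well (71.7, with KIF11 next at 59.5). Per length of the canonical transcript, on the RPKM scale, KIF22 was highest in the DMSO samples of both human lines, with 35.1 ± 0.719 (SD, n = 2) in PC-3 and 34.5 ± 7.35 (SD, n = 3) in LNCaP. KIF18A was lowest, with 4.49 ± 1.23 and 3.11 ± 1.58 RPKM. In PC-3, KIF2C and KIF20A followed KIF22 at 24.9 RPKM each with overlapping samples, and KIFC1, KIF11 and KIF4A, at 22.1, 19.9 and 19.7 RPKM, overlapped as well. KIF23, KIF15 and KIF14 came next at 14.6, 10.4 and 9.38 RPKM, of which the last 2 overlapped. In LNCaP, KIF20A (15.2 RPKM), KIF2C (14.7), KIF11 (11.9), KIFC1 (9.98), KIF4A (9.56), KIF23 (5.90), KIF15 (4.27) and KIF14 (3.58) stood in this order between them, and each overlapped with its neighbour. The overlap with exons on the other strand was largest for KIFC1 (13.99% of its exon bases, shared with RPL12P1) and KIF22 (7.825%), and since the use of strand in counting is not stated, reads of such partners cannot be told apart from the members'. KIF4B, a near-identical copy of KIF4A, had 0 to 6 counts in PC-3 and 1 to 9 in LNCaP, at most 0.716% of the KIF4A counts of a sample.

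The 2 human lines were compared in DMSO because they use the same annotation. Of the 10 members, 9 had a higher mean in PC-3 than in LNCaP by more than 0.5 on the log2 scale. KIF15, KIF23 and KIF14 passed the test at an adjusted p under 0.001 (edgeR), a share no higher than the 38.8% of 14407 genes that did so. KIF14, which works in cytokinesis, stood at 56.2 and 80.5 CPM in the PC-3 samples and at 32.3, 29.8 and 16.3 CPM in LNCaP, without overlap (log2 difference 1.42 ± 0.27 SE, adjusted p = 0.00037). KIF23 differed by 1.34 and KIF15 by 1.32, the latter with an adjusted p of 0.000999745, at the threshold itself. KIF22 showed the smallest difference (0.051, adjusted p = 0.838), and its samples overlapped. The number of members called was between 0 and 6 when 1 of the 5 samples was left out, 0 without PC-3 DMSO replicate 3 and 6 without LNCaP DMSO replicate 1, and none of the 3 calls held in all 5 fits. No share of all genes is at hand for these fits. Cell line and library batch cannot be told apart here.

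All members listed had a higher fitted level after PDA-66 than in DMSO, in each cell line and at both times, but how many passed the test differed widely. In CT1258, all 8 rose at 12 h and all 8 rose at 24 h (edgeR quasi-likelihood test, adjusted p under 0.001), with median log2 fold changes of 1.26 and 1.79. There, 22.2% of 9886 genes were called higher and 22.1% lower at 12 h, and 16.6% and 17.2% at 24 h. In PC-3, KIF4A, KIF18A, KIF2C and KIF23 rose at 12 h and KIF4A, KIF2C and KIF23 at 24 h, that is 4 and 3 of 10, while 13% and 8.88% of 13777 genes were called higher. The median log2 fold changes of the 10 were 0.39 and 0.45, against -0.0052 and -0.010 over all genes. In LNCaP no member passed at 12 h or at 24 h with the edgeR quasi-likelihood test, where 0.0076% and 0% of 13156 genes did. The medians in LNCaP were nevertheless 1.55 and 1.11, all 10 members had an unadjusted p under 0.05 at both times, as had 3950 and 2599 of the 13156 genes in either direction, and 8 at 12 h and 2 at 24 h had an adjusted p under 0.05, the latter threshold being met by 4.52% and 1.35% of genes in the higher direction. Other tests called more LNCaP members and more genes. DESeq2 called 7 members at 12 h and 1 at 24 h, where 2.61% and 1.09% of genes were called higher. The edgeR likelihood ratio test called 7 and 1 as well, beside 2.25% and 0.882% of genes. With limma voom and sample weights, 10 and 10 were called, beside 6.77% and 5.56% of genes. Without LNCaP PDA-66 12 h replicate 2, 10 members at 12 h and 10 at 24 h had an adjusted p under 0.05, which 14.1% and 13.5% of 13335 genes then met in the higher direction. KIF14 and KIF22 then passed 0.001 at 12 h, where 261 genes did so in either direction. In bulk RNA, a larger share of dividing cells and more RNA per cell cannot be told apart.

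**Figure D1:**
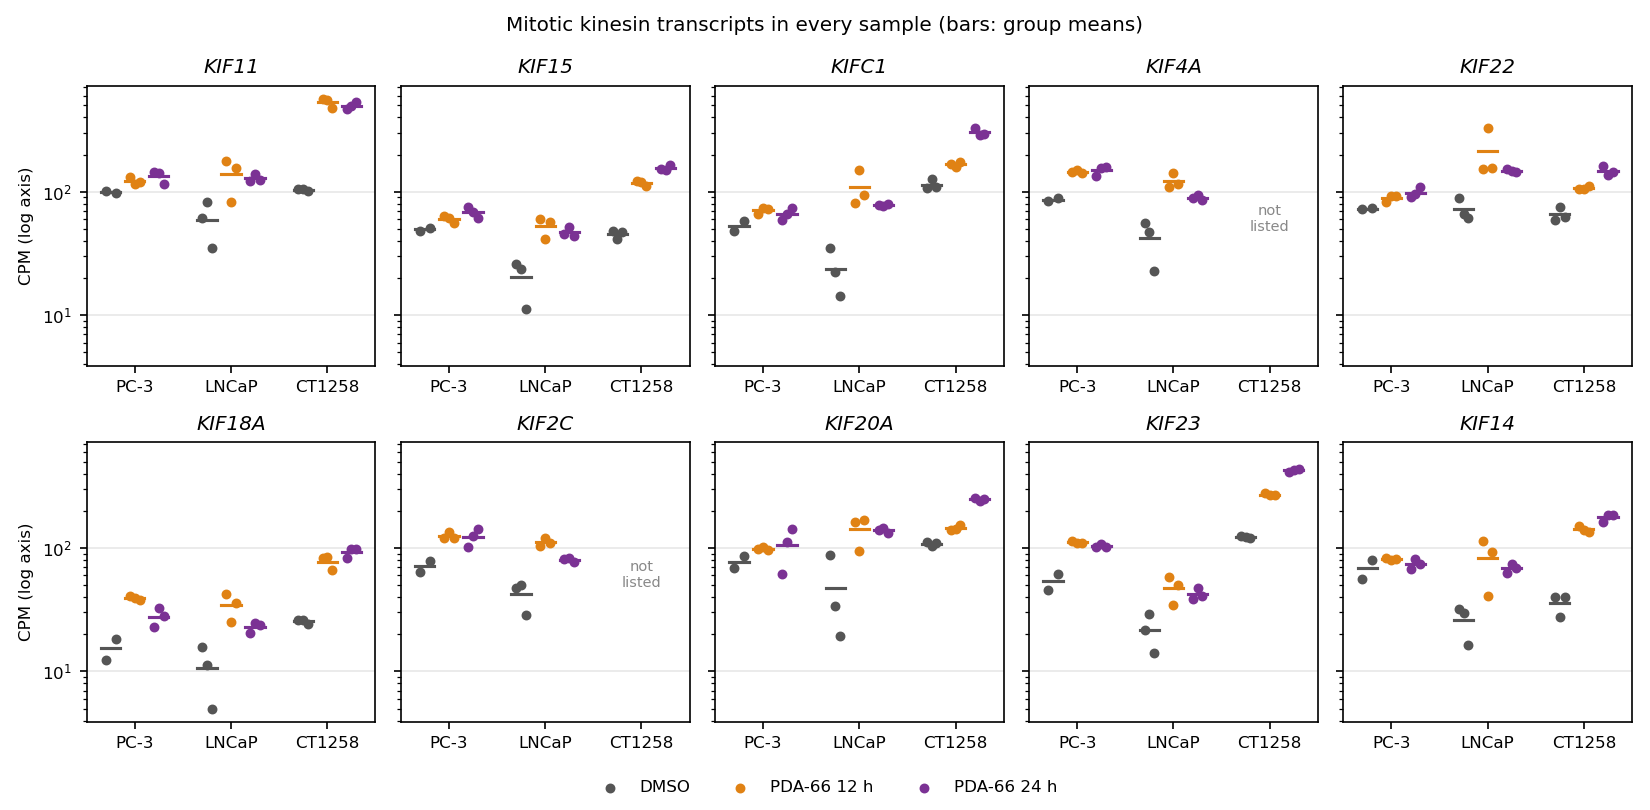
Level of each mitotic kinesin gene in every sample, in CPM on a log axis shared by all panels, for the DMSO samples and the 12 h and 24 h samples of each cell line (points: samples, bars: group means). In CT1258 the DMSO samples lie below all PDA-66 samples for all 8 genes listed, while the 12 h and 24 h samples overlap for KIF11 and KIF18A. In PC-3 and LNCaP some PDA-66 samples overlap with the range of the DMSO samples, as for KIF14 in PC-3 and KIF11 in LNCaP.

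The first group of members keeps the spindle 2-poled. KIF11, which slides antiparallel microtubules apart and separates the poles, had the largest fold change of the members in CT1258 at 12 h. Its level there was 105, 104 and 101 CPM in DMSO, 566, 550.2 and 480.5 CPM after 12 h and 463, 494 and 531 CPM after 24 h. The PDA-66 samples were thus all above 4 times the DMSO level, with log2 fold changes of 2.36 ± 0.090 (SE, n = 3 against 3, adjusted p = 9.20e-10) and 2.26 ± 0.090 (adjusted p = 7.80e-10). In PC-3, KIF11 was at 102 and 97.1 CPM in DMSO, 131, 116 and 121 CPM at 12 h and 145, 142 and 115 CPM at 24 h. These groups did not overlap either, but the differences of 0.30 and 0.42 on the log2 scale had adjusted p of 0.0374 and 0.00744. In LNCaP it stood at 60.7, 82.7 and 35.0 CPM in DMSO, 176, 81.9 and 156 CPM at 12 h and 121, 138 and 125 CPM at 24 h. The low 12 h sample is replicate 2, which lay just below the highest DMSO sample, and the log2 differences were 1.21 (adjusted p = 0.053) and 1.11 (adjusted p = 0.108). Without that replicate they were 1.49 (adjusted p = 0.00252) and 1.11 (adjusted p = 0.00765).

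KIF15 acts beside KIF11 in holding the poles apart. In CT1258 its level was 47.8, 41.0 and 47.5 CPM in DMSO, 123, 119 and 111 CPM at 12 h and 153, 150.3 and 164 CPM at 24 h. It rose by 1.37 ± 0.088 and 1.78 ± 0.088 on the log2 scale (adjusted p = 2.19e-08 and 3.08e-09). In PC-3 the log2 differences were 0.28 and 0.46, and in LNCaP 1.38 and 1.21, none of them past the threshold. The LNCaP values ranged from 11.3 to 26.1 CPM in DMSO and from 41.5 to 59.9 CPM over all 6 PDA-66 samples, without overlap.

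KIFC1, a motor that walks to the minus ends and gathers the spindle poles and surplus centrosomes, had log2 differences of more than 1.5 in LNCaP with all samples. Its samples there were at 35.0, 22.3 and 14.3 CPM in DMSO, 81.1, 151 and 93.8 CPM at 12 h and 78.1, 76.3 and 79.4 CPM at 24 h. Every PDA-66 sample was more than 2 times the highest DMSO sample, and the log2 differences were 2.19 ± 0.33 (adjusted p = 0.0082) and 1.71 ± 0.33 (adjusted p = 0.0339). The highest 12 h value was that of replicate 2, without which the 12 h difference was 1.87 (adjusted p = 0.00101), below that of KIF14 and KIF18A in the same fit (1.99 and 1.88). In CT1258, KIFC1 rose less at 12 h than at 24 h, from 107, 126 and 109 CPM in DMSO to 167, 159 and 174 CPM and then to 329, 288 and 292 CPM. The log2 fold changes were 0.55 ± 0.090 and 1.41 ± 0.090 (adjusted p = 9.04e-05 and 3.31e-08). PC-3 showed log2 differences of 0.42 and 0.33 that did not pass.

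The second group acts on chromosome arms and on the alignment at the plate. KIF4A, a chromokinesin that also limits the growth of midzone microtubules, rose in PC-3 from 83.9 and 88.8 CPM in DMSO to 144, 149 and 141 CPM at 12 h and 135, 155 and 157 CPM at 24 h. The groups were far apart relative to their spread, with log2 fold changes of 0.74 ± 0.10 and 0.79 ± 0.10 (adjusted p = 3.70e-05 and 3.63e-05, n = 3 against 2, edgeR). In LNCaP, KIF4A stood at 55.9, 47.2 and 22.7 CPM in DMSO, 109.7, 141 and 116 CPM at 12 h and 88.3, 93.7 and 85.2 CPM at 24 h, with log2 differences of 1.54 and 1.09 that did not pass.

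KIF22, the chromokinesin that pushes chromosome arms away from the poles, had small differences in PC-3 (0.28 and 0.42 on the log2 scale, adjusted p = 0.0355 and 0.00505). In CT1258 it rose from 59.2, 74.7 and 62.1 CPM to 106, 105 and 111 CPM at 12 h and 161, 135 and 144 CPM at 24 h (log2 fold change 0.71 ± 0.10 and 1.17 ± 0.10). The LNCaP samples were at 89.2, 65.3 and 60.7 CPM in DMSO, 153, 328 and 155 CPM at 12 h and 152, 146 and 145 CPM at 24 h. Here replicate 2 of the 12 h group had more than 2 times the level of the other two, and leaving it out moved the log2 difference from 1.56 (adjusted p = 0.016) to 1.10 (adjusted p = 0.000901).

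KIF18A, a plus-end motor that dampens the oscillations of chromosomes at the plate, had the largest fold change of the members in PC-3 at 12 h. It went from 12.4 and 18.3 CPM in DMSO to 40.7, 39.2 and 37.7 CPM at 12 h, a log2 fold change of 1.35 ± 0.17 (adjusted p = 2.44e-05). At 24 h its samples were lower again, at 22.8, 32.3 and 28.3 CPM, and the log2 difference from DMSO of 0.86 ± 0.17 had an adjusted p of 0.00124, just outside the threshold. Without PC-3 DMSO replicate 3 or without PDA-66 24 h replicate 1 it passed, with an adjusted p of 0.000213 or 0.000706. CT1258 samples stood at 25.9, 25.9 and 24.2 CPM in DMSO, 82.2, 84.5 and 66.0 CPM at 12 h and 82.1, 98.9 and 97.8 CPM at 24 h, rises of 1.61 ± 0.11 and 1.87 ± 0.11 on the log2 scale. LNCaP had log2 differences of 1.69 and 1.10, from DMSO samples between 4.94 and 15.7 CPM, and these did not pass.

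KIF2C does not walk but removes tubulin from microtubule ends, which frees wrongly attached chromosomes. It rose in PC-3 from 63.8 and 78.9 CPM in DMSO to 119, 134 and 119.5 CPM at 12 h and 102, 125 and 141 CPM at 24 h, with log2 fold changes of 0.80 ± 0.14 and 0.78 ± 0.14 (adjusted p = 0.000319 and 0.000535). These calls lay close to the threshold. The 12 h call was lost without DMSO replicate 2 (adjusted p = 0.00215), without the 12 h sample P12-2 or without 12 h replicate 3, and the 24 h call without any 1 of 5 samples, DMSO replicate 2, P12-1, 12 h replicate 3 and 24 h replicates 2 and 3, with adjusted p up to 0.00316. In LNCaP the samples were at 47.5, 50.5 and 28.5 CPM in DMSO, 104, 120.2 and 110.0 CPM at 12 h and 80.9, 82.9 and 77.0 CPM at 24 h, without overlap. KIF2C had the smallest adjusted p of the members there at 12 h, 0.00817, for a log2 difference of 1.40 ± 0.21.

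The last group works at the midzone and in cytokinesis. KIF20A, which carries the chromosomal passenger complex to the midzone, had the largest standard errors of the members in both human lines. Its PC-3 samples stood at 68.9 and 85.3 CPM in DMSO, 98.6, 101 and 95.4 CPM at 12 h and 61.5, 112 and 142 CPM at 24 h. The lowest 24 h sample, replicate 1, was below both DMSO samples, and the log2 differences of 0.35 and 0.44 had adjusted p of 0.225 and 0.141. LNCaP DMSO samples differed more than 4-fold among themselves, at 88.4, 33.6 and 19.4 CPM, and the PDA-66 samples were at 163, 94.8 and 167 CPM at 12 h and 139, 145 and 132 CPM at 24 h. The groups did not overlap, but the log2 differences of 1.59 ± 0.47 and 1.55 ± 0.47 did not pass. Without 12 h replicate 2 the 12 h difference was 1.81 (adjusted p = 0.0118). In CT1258 it rose from 111, 105 and 109 CPM to 139, 142 and 155 CPM at 12 h and 252, 238 and 251 CPM at 24 h. The 12 h log2 fold change, 0.42 ± 0.077 (adjusted p = 0.000226), was the smallest of the members in CT1258 and was not called without 12 h replicate 2 or 3 (adjusted p = 0.00126 and 0.00151), and that at 24 h was 1.19 ± 0.077.

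KIF23, the motor of the centralspindlin complex that bundles midzone microtubules, was called in both PC-3 and CT1258 at both times. PC-3 samples were at 45.4 and 61.8 CPM in DMSO, 114, 109 and 111 CPM at 12 h and 101, 108 and 101 CPM at 24 h (log2 fold change 1.05 ± 0.12 and 0.95 ± 0.12, adjusted p = 1.05e-05 and 4.05e-05). CT1258 samples were at 125, 122 and 119.7 CPM in DMSO, 276, 268 and 266 CPM at 12 h and 414, 426 and 434 CPM at 24 h. Each step was larger than the spread, with log2 fold changes of 1.14 ± 0.072 and 1.80 ± 0.073. In LNCaP the log2 differences were 1.13 and 0.97, and all PDA-66 samples were above the DMSO samples.

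KIF14 binds the midzone bundler PRC1 and citron kinase and is needed for abscission. In PC-3 it was at 56.2 and 80.5 CPM in DMSO, 82.6, 80.0 and 80.8 CPM at 12 h and 68.0, 80.8 and 73.5 CPM at 24 h. The groups overlapped, and the log2 differences were 0.25 (adjusted p = 0.134) and 0.12 (adjusted p = 0.498), the latter -0.11 without DMSO replicate 2. In CT1258 it rose from 40.1, 27.4 and 39.8 CPM to 150.4, 139 and 134 CPM at 12 h and 163, 183 and 185 CPM at 24 h. The log2 fold changes of 1.98 ± 0.13 and 2.31 ± 0.13 (adjusted p = 2.38e-08 and 9.47e-09) were larger than the spread. LNCaP samples were at 32.3, 29.8 and 16.3 CPM in DMSO, 114, 41.0 and 93.4 CPM at 12 h and 62.9, 74.4 and 68.4 CPM at 24 h, without overlap. The log2 difference at 12 h was 1.66 (adjusted p = 0.0257) with and 1.99 (adjusted p = 0.000529) without replicate 2, the low sample.

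**Figure D2:**
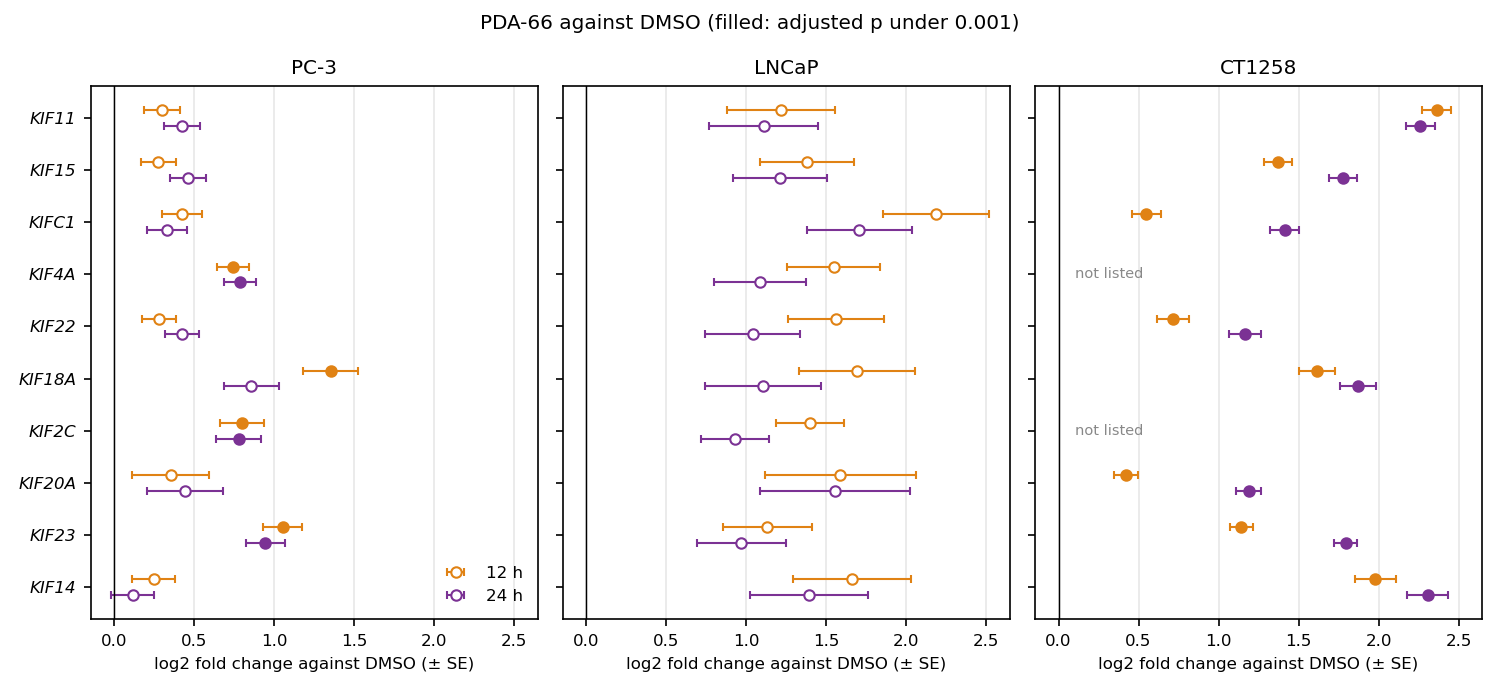
Log2 fold change of PDA-66 against DMSO for each member and cell line (points: estimate, bars: SE, filled: adjusted p under 0.001 with edgeR). In CT1258 all points are filled and run from 0.42 to 2.36, in PC-3 they stay between 0.12 and 1.35, and in LNCaP all are open although most lie above 1.

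Between 12 h and 24 h of PDA-66, members were called in CT1258 alone, and whether the cell lines differed in this step was not tested. In CT1258, KIFC1, KIF20A and KIF23 rose further, by 0.86 ± 0.090, 0.77 ± 0.077 and 0.65 ± 0.072 on the log2 scale (adjusted p = 6.69e-05, 5.69e-05 and 9.10e-05), where 2.13% of genes were called in either direction. KIF15 and KIF22 differed by 0.40 and 0.45 without passing, and KIF11 by -0.10. All 3 calls were lost without 12 h replicate 1 or without 12 h replicate 2, where their adjusted p lay between 0.00101 and 0.00147. Without DMSO replicate 2, 6 members were called, with no share of all genes at hand for that fit. KIF23 was also lost without 24 h replicate 2 or 3 (adjusted p = 0.00117 and 0.00122). In PC-3 no member was called by edgeR, DESeq2 or limma voom, where edgeR's quasi-likelihood test called 1.41% of genes, and KIF18A alone had an unadjusted p under 0.05 (log2 difference -0.50 ± 0.14, adjusted p = 0.0443). In LNCaP all 10 members had a lower fitted level at 24 h than at 12 h with all samples and TMM, by 0.033 to 0.59 on the log2 scale, but this direction did not hold throughout. Without 12 h replicate 1 the difference was 0.10 for KIF11, 0.022 for KIF14, 0.076 for KIF20A and 0.0035 for KIF23. KIF20A also turned without 12 h replicate 3 (0.10) or 24 h replicate 3 (0.0027), with the replicate number as a block (0.0063) and when scaled by library size only (0.00088). None of the 10 passed by any of these tools, 0% of genes did so with edgeR's quasi-likelihood test, and KIF2C alone had an unadjusted p under 0.05.

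Whether the response itself differed between cell lines was tested as an interaction over 11736 genes shared by symbol, at an adjusted p under 0.05. At 12 h the response of PC-3 was smaller than that of LNCaP for KIFC1 (-1.72 ± 0.31, difference of log2 fold changes ± SE, adjusted p = 0.000498), KIF14 (-1.40 ± 0.38), KIF22 (-1.23 ± 0.29, and -0.81 without LNCaP PDA-66 12 h replicate 2, adjusted p = 0.00117) and KIF15 (-1.08 ± 0.29), that is 4 of 8 members where 19.6% of genes differed. At 24 h, KIFC1 (-1.36 ± 0.32) and KIF14 (-1.26 ± 0.38) differed, 2 of 8 against 9.7% of genes. KIF14 was not called at 12 h without PC-3 DMSO replicate 3 (-1.16, adjusted p = 0.0835), which also ended both 24 h calls (KIFC1 -1.23, adjusted p = 0.0557, and KIF14 -0.998, adjusted p = 0.209). The 24 h call of KIF14 was further lost without PC-3 PDA-66 24 h replicate 1 or 3, LNCaP DMSO replicate 3, or LNCaP PDA-66 24 h replicate 2 or 3, with adjusted p between 0.0549 and 0.103. Without LNCaP PDA-66 12 h replicate 2, which enters the spread, 5 members were called at 24 h, and without LNCaP DMSO replicate 1 it was 4. These counts have no share of all genes beside them, since none is at hand for fits without 1 sample. In a fit of the human lines alone, which holds KIF4A and KIF2C, 4 of 10 were called at 12 h and KIFC1 alone at 24 h, against 13.7% and 5.99% of 15018 genes. There KIF4A and KIF2C differed by -0.75 and -0.55 at 12 h without passing (adjusted p = 0.133 and 0.187).

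Of 8 members, 3 at 12 h and 5 at 24 h responded less in PC-3 than in CT1258, against 30.1% and 21.2% of genes that differed in either direction. The count at 12 h was thus near the share of all genes. KIF11 differed by -2.08 ± 0.34 at 12 h and -1.85 ± 0.34 at 24 h (adjusted p = 5.19e-05 and 0.000394), KIF14 by -1.75 ± 0.38 and -2.20 ± 0.38, and KIF15 by -1.11 ± 0.28 and -1.33 ± 0.28. These 6 differences were called in every fit that left out 1 sample. KIFC1 (-1.09 ± 0.31) and KIF23 (-0.86 ± 0.27) were called at 24 h only, but both were lost without PC-3 DMSO replicate 3 (adjusted p = 0.124 and 0.243) or PC-3 PDA-66 24 h replicate 1 (0.0516 and 0.0563), and KIF23 also without PC-3 PDA-66 24 h replicate 3 or CT1258 PDA-66 24 h replicate 3 (0.0624 and 0.0514).  Species, annotation and cell line cannot be told apart in any comparison with CT1258.

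Between LNCaP and CT1258, 3 of 8 members differed at 12 h, a share no higher than the 40.2% of all genes. KIFC1 responded more in LNCaP (1.58 ± 0.30, adjusted p = 0.000272) and KIF11 less (-1.19 ± 0.32, adjusted p = 0.00494). KIF22 was called as well (0.79 ± 0.27, adjusted p = 0.0249), but at 0.35 not without LNCaP PDA-66 12 h replicate 2 (adjusted p = 0.112), nor without LNCaP DMSO replicate 2 or 3 or CT1258 DMSO replicate 2 (adjusted p between 0.0663 and 0.0735). At 24 h KIF11 (-1.18 ± 0.32) and KIF23 (-0.85 ± 0.26) responded less in LNCaP, 2 of 8 members, a share near the 21.1% of all genes. Both were lost without LNCaP DMSO replicate 2 (adjusted p = 0.054 and 0.11), and KIF23 without LNCaP PDA-66 24 h replicate 1 or 3 (adjusted p = 0.0844 and 0.0687), while 5 members were called without LNCaP DMSO replicate 3 or without LNCaP PDA-66 12 h replicate 2. For these fits no share of all genes is at hand, so the 5 calls cannot be set against all genes.

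**Figure D3:**
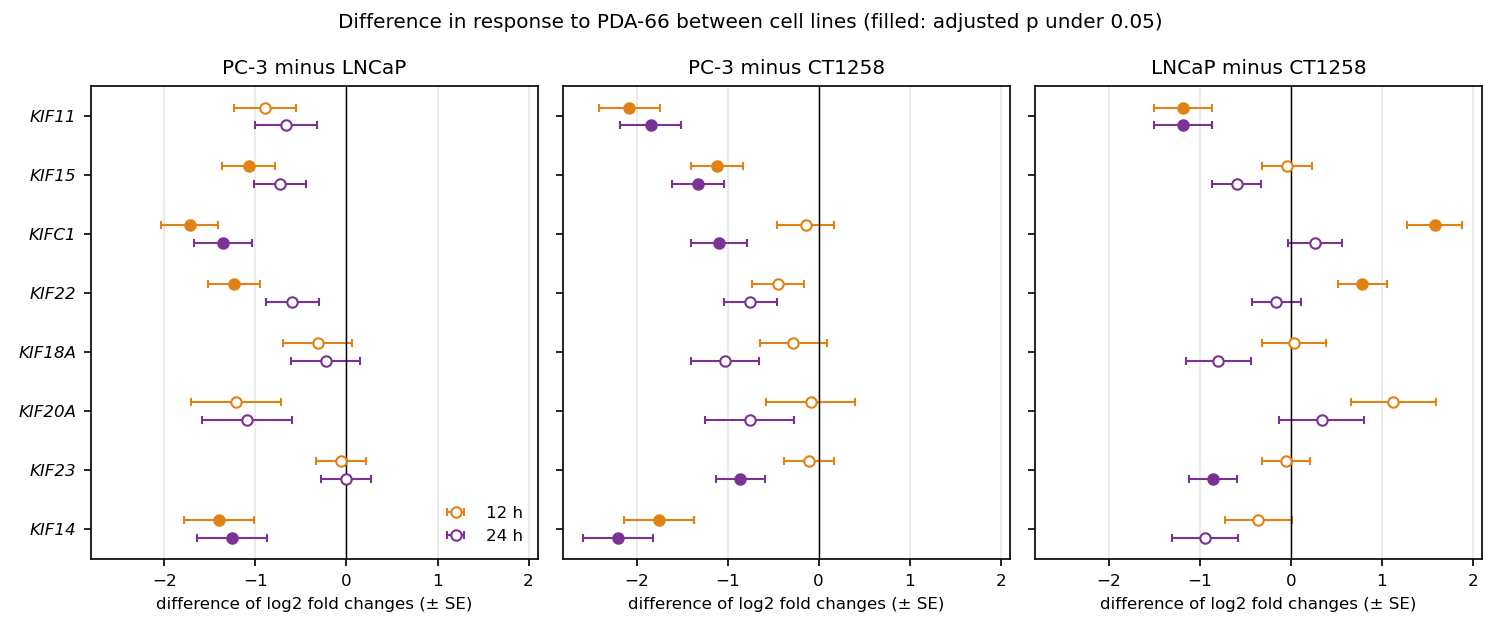
Difference between cell lines in the log2 fold change of PDA-66 against DMSO, for the 8 members listed in all 3 tables (points: estimate, bars: SE, filled: adjusted p under 0.05 with edgeR). PC-3 minus LNCaP and PC-3 minus CT1258 lie below 0 for every member, but several lie within their SE of 0, as for KIF23 in PC-3 minus LNCaP (-0.057 and -0.0074). In the fit of the human lines alone, KIF23 was at 0.011 at 24 h. LNCaP minus CT1258 at 12 h runs from -1.19 for KIF11 to 1.58 for KIFC1.

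The members were set beside 6 other gene lists, each described by counts alone. Of the mitotic kinesins that are no members, CENPE, a kinetochore motor, and KIF20B rose in CT1258 by 1.98 ± 0.091 and 1.78 ± 0.091 at 12 h and by 2.14 ± 0.091 and 1.98 ± 0.091 at 24 h, and all 3 of this list that were tested there were called. In PC-3 none of 4 was called at either time by edgeR's quasi-likelihood test, although 3 and 2 had an adjusted p under 0.05 and were higher, as were 28.3% and 24.3% of all genes. Of the kinesins and light chains of transport, cilia and other uses in CT1258, 5 of 22 tested rose and 3 fell at 12 h, where 22.2% of all genes rose and 22.1% fell. At 24 h 5 rose and 2 fell, beside 16.6% and 17.2% of all genes, with a median log2 fold change of 0.16 and 0.11. The light chain KLC4 fell there (by 1.09 and 1.09) and in PC-3 (by 0.96 and 0.70), whereas KIF24, a motor of the centriole, rose in CT1258 by 1.60 ± 0.17 and 1.70 ± 0.17. In PC-3 the list had 7 of 25 rising and 3 falling at 12 h and 4 and 2 at 24 h, where 13% and 8.88% of all genes were called higher. Of all genes called in PC-3 in either direction, 47% and 45.9% were higher and the rest lower. KLC2 rose by 1.21 ± 0.11 and 0.89 ± 0.11, and the medians of the list, 0.42 and 0.36, were near those of the members. In LNCaP no gene of any of the 6 lists was called at 0.001, and the median of the transport list was 0.013 and -0.062.

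Of the partners and regulators of the members in CT1258, 16 of 23 were called higher and 1 lower at 12 h, beside 22.2% and 22.1% of all genes. At 24 h 17 were higher and 0 lower, beside 16.6% and 17.2% of all genes. Among the higher ones were HMMR, a spindle pole protein (3.30 ± 0.15 and 3.44 ± 0.15), and at 24 h the kinase AURKA (2.67 ± 0.078). NUMA1, which tethers microtubules at the poles, fell by 0.47 at 12 h. In PC-3, 8 and 9 of 25 rose and 0 fell, where 13% and 8.88% of all genes were called higher. Of all genes called there in either direction, 47% and 45.9% were higher and the rest lower. GTSE1, a microtubule protein that inhibits KIF2C, was at 1.22 ± 0.12 and 1.03 ± 0.12. The list of transcription factors of G2/M genes had 9 of 19 members higher in PC-3 at both times, beside the same 13% and 8.88% of all genes. MYBL2 (1.45 ± 0.10 and 1.57 ± 0.10) and FOXM1 (1.15 ± 0.11 and 1.19 ± 0.11), activators that join the MuvB complex at CHR elements, led it, and RBL2, a partner of the repressing form, fell by 0.62 at 12 h. In CT1258, 11 of 18 rose and 2 fell at 12 h and 9 rose and 1 fell at 24 h, beside 22.2% and 22.1% of all genes at 12 h and 16.6% and 17.2% at 24 h. Subunits of MuvB were called in both directions. RBBP4 rose by 2.20 ± 0.10 and 1.90 ± 0.10 and LIN9 by 1.27 ± 0.12 at 24 h, and LIN37 fell by 1.25 and 1.05.

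Cell cycle genes at large were higher with PDA-66 as well. Summed over members, the level in PC-3 was 600.4 and 694 CPM in DMSO, 927 to 955 CPM at 12 h and 859 to 1002 CPM at 24 h. In LNCaP it was 227 to 472 CPM in DMSO, 1034 to 1059.8 CPM at 12 h and 820.1 to 879 CPM at 24 h, and over the 8 genes of CT1258 612 to 626, 1498 to 1609.6 and 2013 to 2099 CPM. In none of the lines did a PDA-66 sample reach down to the DMSO samples. The G2/M genes of the Seurat lists, without the members, had median sums of 5915, 7559 and 7785 CPM in PC-3 in the order DMSO, 12 h and 24 h. They had 4565, 9464 and 8170.0 CPM in LNCaP and 4939, 10314 and 12738 CPM in CT1258. The sums of the S phase genes were higher too, and went from 2531 to 4418 and 4566 CPM in PC-3, from 2484 to 5200.5 and 4672 CPM in LNCaP and from 2729 to 4932 and 3797 CPM in CT1258. In CT1258 the summed levels of the members and of the G2/M genes were higher at 24 h than at 12 h and that of the S phase genes lower. Gene by gene, this step was called for few, 3 of 8 members, 6 of 44 G2/M genes higher and 1 lower, and 0 of 38 S phase genes higher and 4 lower (edgeR, adjusted p under 0.001). Of all genes, 2.13% were called in either direction. Without 12 h replicate 1 or 2, it was called for 0 members, and no share of all genes is at hand for these fits. Against DMSO, G2/M genes rose in 35 of 44 cases at 12 h and 40 of 44 at 24 h in CT1258 and in 12 of 49 at both times in PC-3, where TUBB4B, a beta tubulin, fell by 1.25 and 0.78. S phase genes rose in 26 and 28 of 42 cases in PC-3, with RRM2 at 1.58 ± 0.14 and 1.56 ± 0.14, and in 27 and 20 of 38 in CT1258, with HELLS at 2.43 ± 0.10 and 1.64 ± 0.10. Beside these counts, 22.2% and 16.6% of all genes were called higher in CT1258 at 12 h and 24 h, and 13% and 8.88% in PC-3. The part of the cell cycle phases in the rise of the members was not tested.

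**Figure D4:**
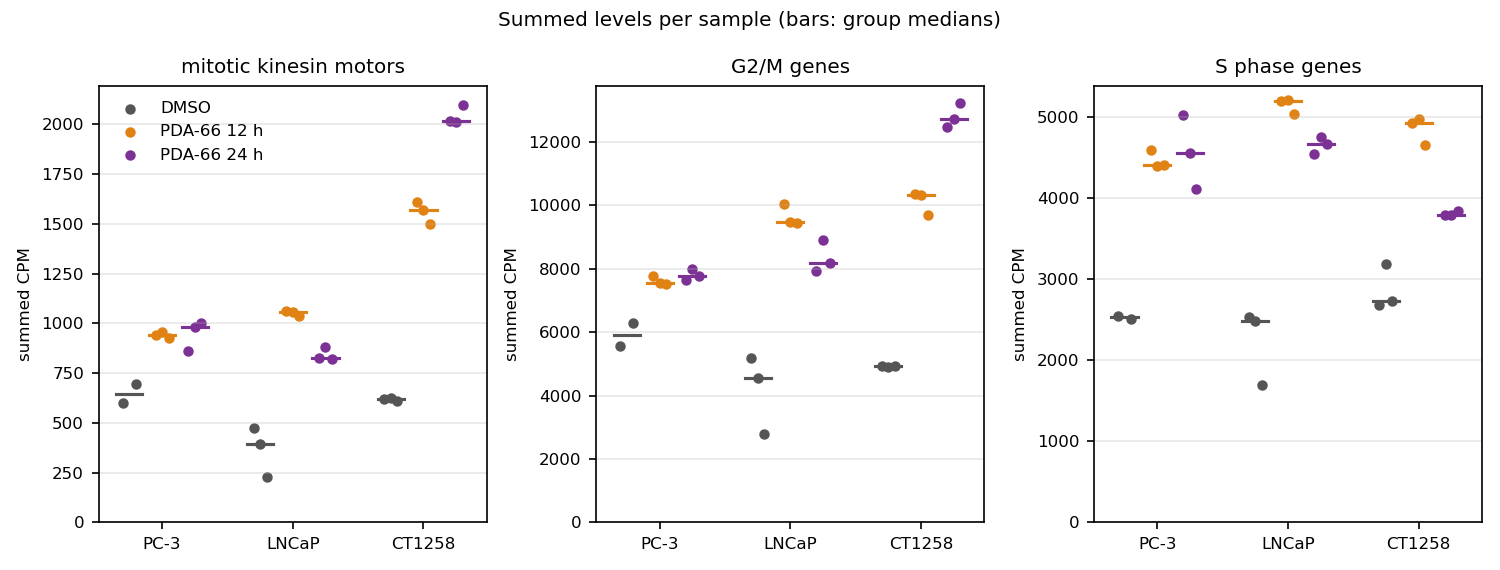
Summed CPM per sample of the mitotic kinesin motors, of the G2/M genes and of the S phase genes for each cell line and group (points: samples, bars: medians, axes from 0). The members rise from 227 to 472 CPM in LNCaP DMSO to above 820 CPM with PDA-66, and in CT1258 the sums of the members and of the G2/M genes are highest at 24 h while those of the S phase genes are highest at 12 h.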

How the data were processed

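Libraries of poly(A) RNA were sequenced with single reads in all 3 cell lines. The authors aligned human reads with STAR 2.3.1s to hg19 and canine reads with BWA to CanFam3.1, and deposited raw counts per gene for 26 of the 27 samples. The submitters' processing notes also name edgeR 3.14.0. Use of strand and of reads with several matches is not given in the sources used here. The study describes the replicates of a condition as independent biological ones, and p-values measure the spread between them.

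Genes passing filterByExpr were scaled by TMM and tested with edgeR 4.0.16 (R 4.3.3) by the quasi-likelihood test over all 3 groups of a cell line, with Benjamini-Hochberg adjustment over all genes and a threshold of 0.001. Differences in response between cell lines were interactions over shared genes at 0.05. Standard errors are the log2 fold change over the root of F. Tests were 2-sided. The procedure was tested on simulated data. Alternatives were other scalings, no filter, DESeq2 1.42.0, limma 3.58.1, the likelihood ratio test, other thresholds, 2 groups or cell lines alone, a replicate block, thinned CT1258 DMSO counts and leaving out each sample. One alternative, an adjusted p under 0.05 without LNCaP PDA-66 12 h replicate 2, was chosen after seeing the data. The members and lists were chosen with earlier results of these data known. All members are named, and of each list at most 2 called genes per direction and comparison, by the largest change. The S and G2/M lists are those of Seurat 5.3.0 without the members. RPKM used the length of the canonical transcript. Protein sequences and a canine genome were not used here, and the list of prostate luminal markers is not reported here. The PC-3 columns of 12 h samples P12-1 and P12-2 carry no clear replicate number.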

Additional observations from a re-analysis of the deposited data

Results flagged for a closer look

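The results below are differences between cell lines in the log2 fold change of PDA-66 against DMSO that passed the interaction test (edgeR, adjusted p under 0.05), and no explanation was tested. For PC-3 minus LNCaP at 12 h they were -1.40 for KIF14, -1.08 for KIF15, -1.23 for KIF22 and -1.72 for KIFC1. At 24 h they were -1.26 for KIF14 and -1.36 for KIFC1. For PC-3 minus CT1258 at 12 h they were -2.08 for KIF11, -1.75 for KIF14 and -1.11 for KIF15. At 24 h they were -1.85 for KIF11, -2.20 for KIF14, -1.33 for KIF15, -0.86 for KIF23 and -1.09 for KIFC1. For LNCaP minus CT1258 at 12 h they were -1.19 for KIF11, 0.79 for KIF22 and 1.58 for KIFC1, and at 24 h -1.18 for KIF11 and -0.85 for KIF23. The calls that ended without 1 sample are named beside these results above.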

How the results depend on the processing

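The direction of every member against DMSO was the same under TMM, DESeq2 size factors and library size only. In PC-3 at 24 h, 45.9% of the genes called were higher under TMM and 57.8% with library size only. At an adjusted p under 0.05, 8 members were called in PC-3 at 12 h, 8 at 24 h and 1 between the times, 8 and 2 in LNCaP at 12 h and 24 h, 5 in CT1258 between the times and 7 between the DMSO groups. Of all genes, 28.3% and 24.3% were then called higher in PC-3 against DMSO and 10.1% between its times, 4.52% and 1.35% higher in LNCaP, and 19.3% between the times of CT1258 and 64% between the DMSO groups in either direction. Without LNCaP PDA-66 12 h replicate 2, 10 and 10 members of LNCaP met 0.05. With a log2 fold change of at least 1 as well, 2 and 0 were called in PC-3, 5 in CT1258 at 12 h and 0 between its times. DESeq2 and the likelihood ratio test each called 5 in PC-3 at 24 h, 7 and 1 in LNCaP and 5 in CT1258 between the times, and limma voom 10 and 10 in LNCaP and 6 in CT1258 between the times. Of all genes in CT1258 between the times, these tests called 6.7%, 7.38% and 21% in that order, and in PC-3 at 24 h the first 2 called 12.8% and 14.4% higher. The likelihood ratio test called 5 of 10 members between the DMSO groups, beside 47.9% of 14407 genes in either direction. With 2 groups alone, 5 were called in CT1258 between the times. For the response of PC-3 against LNCaP at 24 h, library size only and the fit of 2 cell lines each gave 1 call, and for PC-3 against CT1258 at 24 h the latter gave 8. At 0.001 the calls at 12 h and 24 h were 1 and 0 for PC-3 against LNCaP, 1 and 2 for PC-3 against CT1258, and 1 and 0 for LNCaP against CT1258. No share of all genes is at hand for the minimum log2 fold change, the fit of 2 groups alone or the fit of PC-3 and CT1258 alone. The same holds for the responses with library size only and at 0.001, so these counts cannot be set against all genes. The cause was not tested.

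Leaving out 1 sample at a time gave 3 to 4 and 2 to 4 calls in PC-3 at 12 h and 24 h and 0 to 0 between them, 0 to 2, 0 to 0 and 0 to 0 in LNCaP, and 7 to 8, 8 to 8 and 0 to 6 in CT1258. The responses gave 3 to 6 and 0 to 5 calls for PC-3 against LNCaP, 3 to 3 and 3 to 6 for PC-3 against CT1258, and 2 to 4 and 0 to 5 for LNCaP against CT1258, and the DMSO groups 0 to 6. In LNCaP without PDA-66 12 h replicate 2, 261 of 13335 genes were called at 12 h and 105 at 24 h. No share of all genes is at hand for the other counts, so they cannot be set against all genes. Small differences that were not called changed sign. With library size only these were KIF2C in PC-3 between the times (0.0060), KIF20A in LNCaP between the times (0.00088) and KIF22 between the DMSO groups (-0.057). Without 1 sample, KIF14 in PC-3 at 24 h ranged from -0.11 to 0.41, and between the times KIF2C in PC-3 from -0.13 to 0.099 and KIF20A from -0.19 to 0.36. In LNCaP between the times, KIF11 ranged from -0.37 to 0.10, KIF14 from -0.60 to 0.022, KIF23 from -0.35 to 0.0035 and KIF20A from -0.25 to 0.10. KIF22 between the DMSO groups ranged from -0.065 to 0.23.

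With the replicate number as a block, CT1258 gave 8, 8 and 3 calls, LNCaP 0, 0 and 0, and PC-3 at 24 h 4, and KIF20A in LNCaP between the times changed sign (0.0063). Same-numbered samples correlated between -0.42 and 0.19 in their deviations, so the numbers were not taken to pair the samples. Thinning the CT1258 DMSO counts left 8, 8 and 3 calls. No share of all genes is at hand for the fits with a block or with thinned counts.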
